A study of Gossypium barbadense and Gossypium hirsutum with 4 samples.

Results

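Probe sets for 4 genes of cell wall loosening, an alpha-expansin 8, an alpha-expansin 4, an endo-1,4-beta-glucanase and a pectin methylesterase-like protein, were followed in elongating cotton fibers of *Gossypium hirsutum* (*Gh*) and *G. barbadense* (*Gb*). The set held 8 of the 24029 probe sets compared. Of these, 6 were taken by name and 2 were added because they carry the same prefix and cluster number. The names came from the supplementary annotation of the study, of which 1159 rows, a part of a longer table, were used here. Every one of those rows had been selected on the signals of these same arrays, for a level in *Gh* of 2-fold or more that in *Gb*. The 6 named probe sets were thus chosen by the difference between the genotypes, which fixed its direction, and their differences between the genotypes are given as a description. The 2 added ones lie outside these rows, so their smaller differences also follow in part from the choice. Counts past a threshold stand below only beside the share of all probe sets, and are no test of these values. Wall-loosening probe sets higher in *Gb*, or alike in both species, could not be named from these rows. Of the 6, the probe set nearest to that limit was Ghi.9840.2.S1_s_at, at -1.54 (log2, *Gb* minus *Gh*), and the nearest of the added probe sets outside it was Ghi.9728.2.S1_s_at, at -0.51.

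RNA was hybridized to 4 Affymetrix cotton arrays, 2 per species. The *Gb* arrays, named V.1 and V.2, carried RNA of the variety VH8-4602, and the *Gh* arrays, named G.29 and G.30, carried RNA of Guazuncho 2. No other variety of either species was measured, so a difference between the species cannot be told apart from a difference between these varieties. All plants were untreated and grown in soil in a glasshouse, each array received RNA pooled from 4 plants, and the labels and methods place the fibers at 11 days post anthesis (dpa), whereas the results text of the study gives an age a day younger. Both species are allotetraploids, and copies of a gene from the A and D subgenomes were not told apart here.

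The growing fiber is a single cell whose primary wall is a network of cellulose microfibrils, xyloglucan and pectin. Expansins are wall proteins that let these polymers slip past each other at acid pH without cutting them, and endo-1,4-beta-glucanases cut the backbone of glucans. Pectin methylesterases remove methyl groups from pectin, after which the pectin can be bridged by calcium, which stiffens the wall, or be cut by polygalacturonases, which weakens it. In plants, proteinaceous inhibitors hold pectin methylesterases in check.

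The array medians of the log2 signal lay between 4.26 and 4.36, and between 47.0% and 47.3% of the probe sets reached a log2 signal of 5 on each array. A log2 signal of 4 was used here as a floor, and where both arrays of a species were under it, a fold is given only as a lower bound against the floor and the measured difference rests on a signal not above it. The 5′ minus 3′ signal of the actin control was lower on the *Gb* arrays, at -3.03 and -3.07, than on the *Gh* arrays, at -2.52 and -2.18. It was also lower in *Gb* for the ss1 control (-4.87 and -5.04 against -4.62 and -3.62) and the ubq11 control (-1.94 and -1.80 against -1.79 and -1.36). The fiber markers with a name, lipid transfer proteins and a fasciclin-like arabinogalactan protein, were present on all arrays, with a log2 summed signal of 13.59 to 13.65 in *Gb* and 15.00 to 15.01 in *Gh* for the 4 probe sets. For green tissue, 3 of 3 named probe sets (rubisco large subunit, photosystem II CP43 and photosystem I subunit IV A) were higher in *Gh*, with log2 summed signals of 7.50 and 8.07 in *Gb* and 9.44 and 9.79 in *Gh*, while vicilin, legumin, oleosin and other seed markers looked for gave no name. A probe set of the family named protease inhibitor, seed storage and lipid transfer protein was counted with the lipid transfer proteins of the fiber. These markers stem from the same rows, so that their direction was fixed in the same way, and neither their part nor that of the 5′ to 3′ signal in the differences below was tested. In bulk fiber RNA, fewer cells of a type and less RNA per cell cannot be told apart.

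Alpha-expansin 8 was measured by GhiAffx.40054.1.S1_at, the only probe set of its cluster. Its log2 signal was 9.40 and 9.43 on the *Gb* arrays V.1 and V.2, and 11.40 and 11.50 on the *Gh* arrays G.29 and G.30. The difference of *Gb* minus *Gh* was -2.04 ± 0.05 (limma standard error, n = 2 arrays per species), a 4.10-fold higher signal in *Gh*. The smallest distance between any *Gb* and any *Gh* array was 1.98, against 0.03 between the *Gb* arrays and 0.10 between the *Gh* arrays. At log2 signals of 8 or more, the typical gap between the arrays of a species was 0.10 in *Gb* and 0.09 in *Gh*. Within the arrays it moved from a mean percentile of 78.8 in *Gb* to 91.4 in *Gh*, the percentile being the share of probe sets with a lower signal on the same array.

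**Figure D1:**
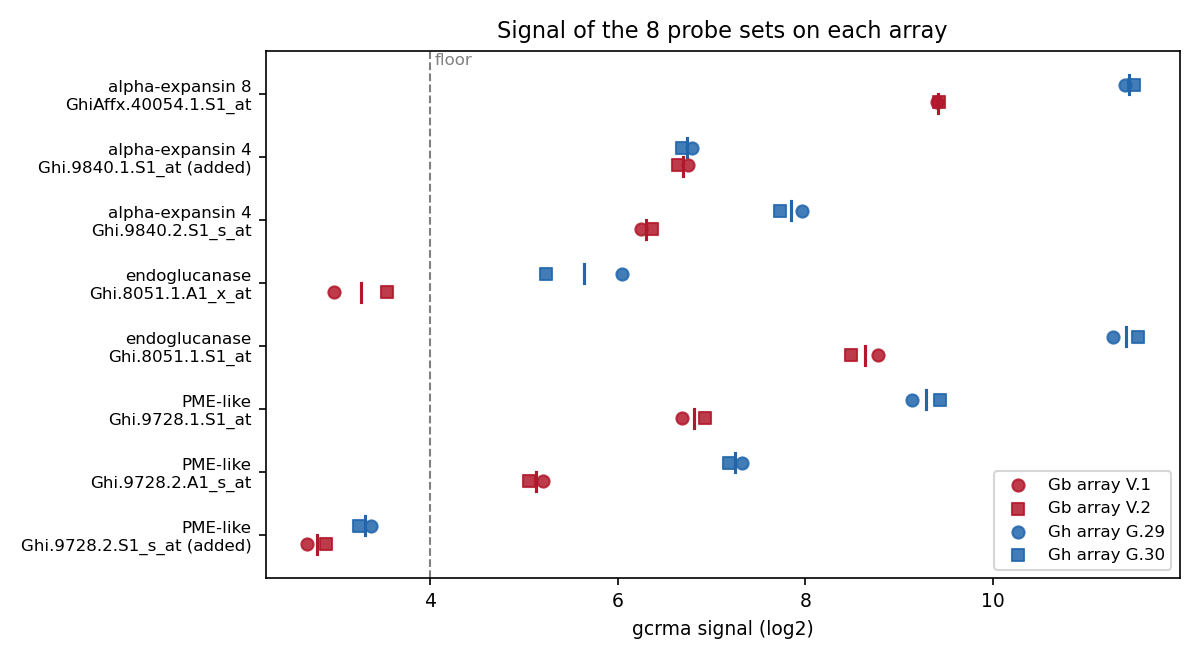
Log2 gcrma signal (x axis) of each of the 8 probe sets (rows) on the 4 arrays, *Gb* in red and *Gh* in blue, with vertical bars for the mean of each species and a dashed line at the floor of 4. The species overlap only for Ghi.9840.1.S1_at, and Ghi.9728.2.S1_s_at lies under the floor on all 4 arrays.

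The probe sets of alpha-expansin 4 did not show the same difference. Ghi.9840.2.S1_s_at, which is described as similar to the Arabidopsis expansin EXPA6, gave a log2 signal of 6.25 and 6.36 in *Gb* and of 7.97 (G.29) and 7.73 (G.30) in *Gh*. The difference was -1.54 ± 0.11, or 2.92-fold higher in *Gh*, and the mean percentile was 58.9 in *Gb* and 68.2 in *Gh*. The other probe set of the cluster, Ghi.9840.1.S1_at, gave 6.75 and 6.65 in *Gb* and 6.79 (G.29) and 6.69 (G.30) in *Gh*, so its arrays overlapped between the species. Its difference was -0.04 ± 0.06, and its mean percentile was 61.0 in *Gb* and 61.1 in *Gh*. The sign of this small difference changed with the scaling of the arrays and with the array left out, over a range of -0.33 to 0.04.

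By the naming of the array, the number after the cluster number marks a separate sequence of the cluster, and the ending _s_at marks probes that can match several transcripts. Ghi.9840.1.S1_at and Ghi.9840.2.S1_s_at thus read different sequences, and only the second of them can match several transcripts. Since levels of different probe sets cannot be compared directly, the gap between both was taken within each array and compared between species. Ghi.9840.1.S1_at minus Ghi.9840.2.S1_s_at was 0.51 and 0.28 on the *Gb* arrays and -1.18 and -1.04 on the *Gh* arrays, a shift of 1.51. The gaps did not overlap, but the two-sided exact permutation p was 0.333, the smallest that 2 arrays against 2 allow. One of both probe sets had been chosen for its difference, so this gap is not independent of the choice.

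The endo-1,4-beta-glucanase had the largest difference of the 8 probe sets. Ghi.8051.1.S1_at, named after a partial coding sequence from cotton, gave a log2 signal of 8.78 and 8.49 in *Gb* and of 11.28 (G.29) and 11.55 (G.30) in *Gh*. The difference was -2.78 ± 0.16, a 6.87-fold higher signal in *Gh*, and only 1.08% of all probe sets had a lower value of *Gb* minus *Gh*. Its mean percentile within the arrays was 73.4 in *Gb* and 91.2 in *Gh*.

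Ghi.8051.1.A1_x_at was designed from the same sequence in the other orientation, the letters S and A marking the orientation and _x_at marking probes shared with other transcripts. Its log2 signal was 2.98 and 3.55 in *Gb* and 6.05 (G.29) and 5.23 (G.30) in *Gh*. Here both *Gb* arrays were under the floor, so that the signal was at least 3.12-fold higher in *Gh*, and the measured difference was -2.38 ± 0.40. The arrays of a species were 0.57 and 0.81 apart here, against 0.29 and 0.27 for Ghi.8051.1.S1_at. Since its *Gb* signals were not above the floor, nothing is read from the gap between both probe sets.

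For the pectin methylesterase-like protein, similar to an Arabidopsis pectinesterase with an inhibitor domain by its description, 2 of 3 probe sets gave a signal over the floor. Ghi.9728.1.S1_at gave 6.69 and 6.93 in *Gb* and 9.14 (G.29) and 9.44 (G.30) in *Gh* on the log2 scale, a difference of -2.48 ± 0.16, or 5.57-fold. Ghi.9728.2.A1_s_at gave 5.20 and 5.06 in *Gb* and 7.32 (G.29) and 7.19 (G.30) in *Gh*, a difference of -2.12 ± 0.08, or 4.36-fold. By its ending, Ghi.9728.2.A1_s_at can match several transcripts. Both probe sets had a higher signal on every *Gh* array than on any *Gb* array, in the direction for which they were chosen. Their mean percentiles went from 61.6 in *Gb* to 78.3 in *Gh* for the first and from 53.5 to 64.1 for the second.

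The gap of Ghi.9728.1.S1_at minus Ghi.9728.2.A1_s_at was 1.49 and 1.87 on the *Gb* arrays and 1.82 and 2.25 on the *Gh* arrays. The gaps overlapped, with a shift of -0.35 and a two-sided exact permutation p of 0.667, in a design whose smallest p is 0.333 and which could not have detected a different response of these sequences. The remaining probe set, Ghi.9728.2.S1_s_at, was designed from the sequence of Ghi.9728.2.A1_s_at in the other orientation. It gave 2.70 and 2.89 in *Gb* and 3.37 (G.29) and 3.24 (G.30) in *Gh*, all under the floor, so no fold was drawn from its measured difference of -0.51.

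Such a contrast between orientations was common on the array. Of 2060 pairs of probe sets designed from a sequence in opposite orientations, both passed the floor on at least 2 arrays in 15.5%, as for the endoglucanase, and exactly 1 of them did so in 55.6%, as for Ghi.9728.2. Where exactly 1 passed, it was the A probe set, as in Ghi.9728.2, in 422 pairs and the S probe set in 723.

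Over the 8 probe sets, 7 had no overlap between the species, all of them higher in *Gh*, the exception being Ghi.9840.1.S1_at. Among all probe sets 19.7% were higher in *Gh* without overlap, and 81.9% did not overlap in either direction. The 6 named probe sets, but neither of the 2 added ones, were also past the limma threshold (Benjamini-Hochberg adjusted p under 0.05) with the higher signal in *Gh*, where 8.87% of all probe sets were and 20.3% passed in either direction. Both counts follow from the way the probe sets were chosen, and nothing is read from them. The median difference was -2.25 for the 6 named and -2.08 for all 8, against 0.04 over all probe sets and -1.64 over the 1159 rows from which the names came. With groups under the floor set to their bound, the medians were -2.08 and -1.84. The typical gap between the arrays of a species was 0.16 in *Gb* and 0.17 in *Gh* at log2 signals of 5 to 8, and 0.10 and 0.09 at 8 or more. All 8 probe sets were designed from *Gh* sequences by their prefix, so that a difference in transcript level and a difference in how well *Gb* transcripts match the probes cannot be told apart.

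**Figure D2:**
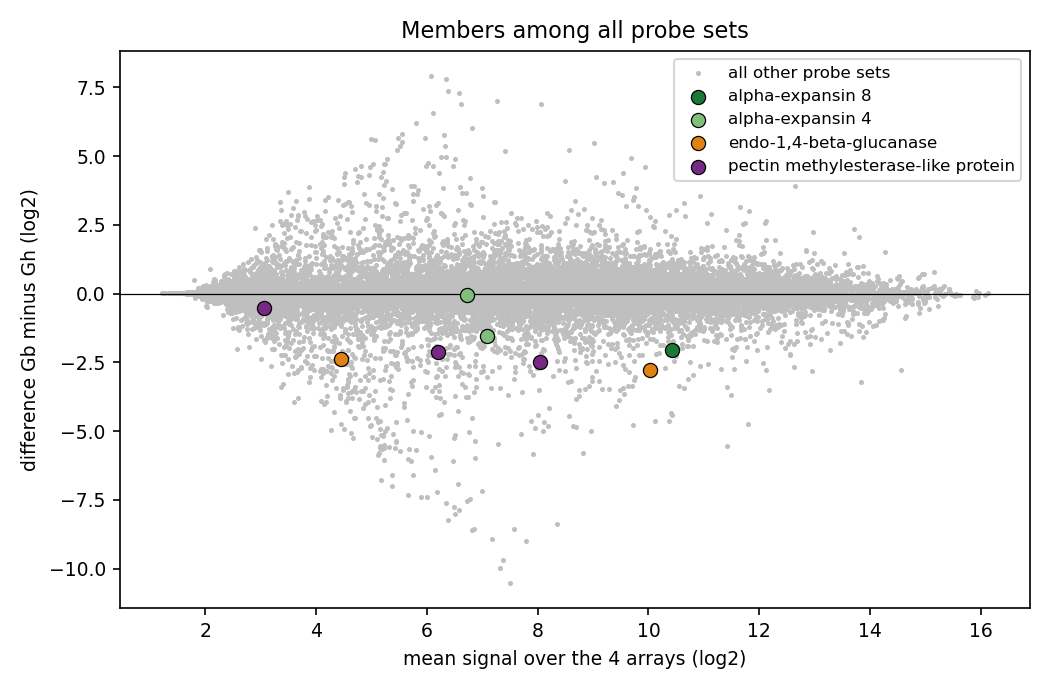
Difference *Gb* minus *Gh* (y axis, log2) against the mean signal over the 4 arrays (x axis, log2) for all probe sets in grey and the 8 probe sets of the loosening genes in colour. The 6 named probe sets lie between -2.78 and -1.54, while Ghi.9840.1.S1_at lies at -0.04 and Ghi.9728.2.S1_s_at, under the floor, at -0.51.

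Agreement within a cluster was set beside the other clusters of the array. In all, 2571 pairs of probe sets that share a cluster passed the floor on at least 2 arrays each, from 898 clusters. Probe sets from the same sequence had the same sign of difference in 80.3% of 365 pairs, with a median shift between them of 0.21. From different sequences the sign was the same in 57.5% of 2206 pairs, and the median shift was 0.51. The pectin methylesterase pair, from different sequences, had a shift of -0.35. Its shared sign was fixed by the choice of both probe sets, so it is not comparable with these shares. A probe set may be in these pairs through the species in which it is high, as Ghi.8051.1.A1_x_at is. The shift of 1.51 between the alpha-expansin 4 probe sets was met or passed by 361 pairs from different sequences, or 16.4%. Where both probe sets were at or above the floor on all 4 arrays, as for alpha-expansin 4 and this pectin methylesterase pair, the sign was the same in 78.8% of 316 pairs from the same sequence and in 57.7% of 1874 from different sequences, and 11.5% of the latter met or passed that shift.

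Where a probe set was at least 2-fold higher in *Gh*, its partner from a different sequence was also higher in *Gh* in 57.8% of 552 cases, at least 2-fold higher in 25.4%, and within 0.1 of no difference in 8.88%. Ghi.9840.1.S1_at belongs to the last of these, and Ghi.9728.1.S1_at and Ghi.9728.2.A1_s_at to those at least 2-fold higher. The class of both pectin methylesterase probe sets was fixed, as the rows used hold only differences of 2-fold or more. That of Ghi.9840.1.S1_at, which lies outside these rows, follows in part from the choice. Partners from the same sequence were higher in *Gh* in 95.7% of 46 cases and at least 2-fold higher in 60.9%. Large clusters contribute many pairs to these shares, so the pairs are not independent of each other. A partner can also enter a pair through the *Gh* arrays alone, which can raise the shares higher in *Gh*. These shares were not repeated for pairs over the floor on all arrays, so they are a description only.

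**Figure D3:**
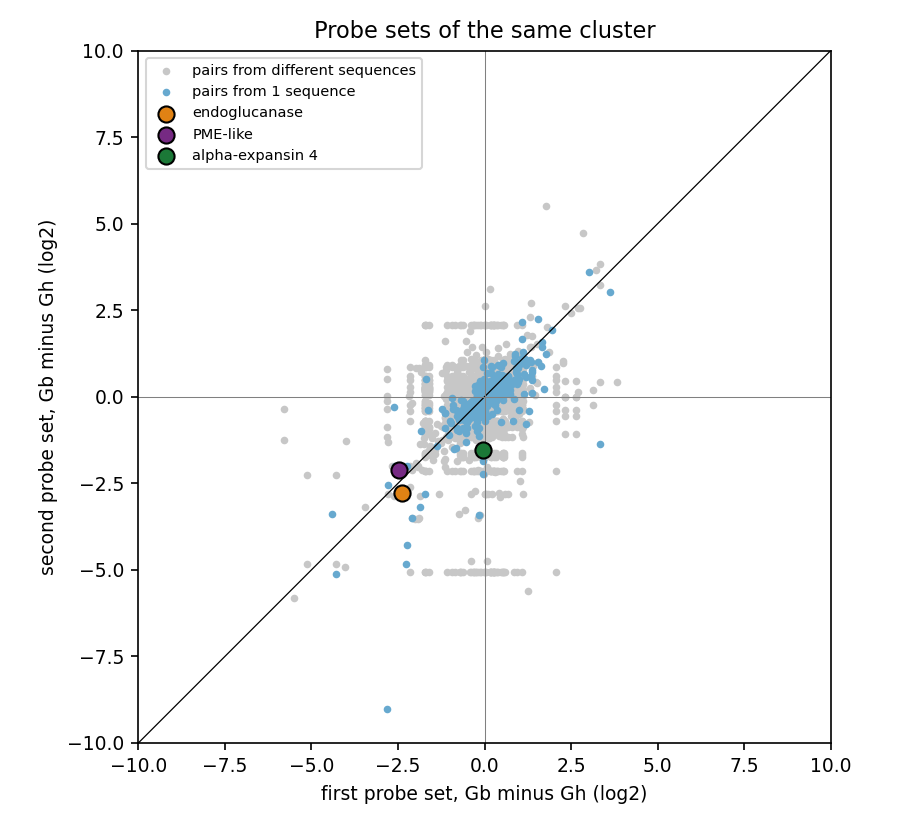
Difference *Gb* minus *Gh* (log2) of the first (x axis) and the second (y axis) probe set of each pair that shares a cluster and passed the floor, for 2206 pairs from different sequences (grey) and 365 from 1 sequence (blue), with the line of equal differences. The pectin methylesterase-like (PME-like) pair lies near the line, the place of the endoglucanase pair rests on *Gb* signals under the floor, and the alpha-expansin 4 pair lies 1.51 away from it.

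The other wall-loosening names of the annotation were counted in the same way, with every probe set of their clusters. The list, the 8 probe sets above included, held 26 probe sets in 19 clusters, of which 20 were past the limma threshold with the higher signal in *Gh*, 0 with the higher signal in *Gb*, and 6 did not pass (among all probe sets 8.87% passed in *Gh* and 11.4% in *Gb*). Since the named rows hold only probe sets higher in *Gh*, the 0 in *Gb* and the direction of the named probe sets were fixed by the rows used and say nothing of wall-loosening genes on the whole array. Among the 18 probe sets outside the 4 genes, 14 passed. Of the 5 probe sets added by cluster number, 1 passed, namely Ghi.6236.2.S1_s_at, and 3 were under the floor on all arrays. They are the probe sets of these clusters that lie outside the rows used. Their smaller differences thus follow in part from the choice and are no test against the named ones. The median difference was -1.58 over the list, -1.65 over the 21 named and -0.04 over the 5 added, and -1.56, -1.64 and 0 with groups under the floor at their bound.

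Xyloglucan endotransglycosylases cut xyloglucan and rejoin it to another chain. The rows used and their clusters gave 5 of their probe sets, 4 of them in the rows selected for a higher signal in *Gh*, and others on the array were not named here. Their differences ran from -1.65 (Gra.375.2.S1_s_at, named XTR2) over -1.59 (Ghi.6236.1.S1_s_at), -1.44 (Ghi.5847.1.S1_x_at, named EXGT-A3) and -1.40 (GraAffx.8958.1.S1_s_at) to -0.88 (Ghi.6236.2.S1_s_at). The last of these was added by its cluster number, and its mean log2 signal was 14.20 in *Gb* and 15.08 in *Gh*.

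Among the further pectin enzymes outside the 4 genes, 2 of 4 named probe sets of the pectin methylesterase family and its inhibitors passed. A pectinesterase-like protein, Ghi.7660.1.S1_s_at, was higher in *Gh* by a difference of -1.47 ± 0.05, and a pectinesterase precursor, Gra.1516.2.S1_s_at, by -1.03 ± 0.05. A further pectin methylesterase, Gra.1483.2.S1_at, and a pectinesterase inhibitor, Ghi.9475.1.S1_s_at, did not pass. Both were under the floor on both *Gb* arrays, with a signal at least 2.58-fold and 1.82-fold higher in *Gh*.

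Acetyl groups are removed from pectin by pectin acetylesterases. Their probe sets GhiAffx.20990.1.S1_s_at (-1.97 ± 0.08) and Ghi.10476.2.S1_s_at (-1.90 ± 0.31) were past the threshold. So were the polygalacturonase probe sets Ghi.10354.1.S1_s_at (-1.58 ± 0.27) and Gra.590.1.S1_s_at, the latter with both *Gb* arrays under the floor and a signal at least 1.62-fold higher in *Gh*. Beta-xylosidases trim xylose from wall polysaccharides, and the 3 probe sets named so passed. BXL1, Ghi.8524.1.S1_at, had a difference of -4.42 ± 0.09, the largest of the list, with signals of 5.76 and 5.81 in *Gb* and 10.31 (G.29) and 10.10 (G.30) in *Gh*, or 21.4-fold. Ghi.5042.1.A1_s_at had a difference of -2.21 ± 0.07, and Ghi.9633.2.S1_s_at, under the floor on both *Gb* arrays, was at least 4.83-fold higher in *Gh*. No pectate lyase was named.

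Calls were also made with each array left out, which leaves 1 array in a species. The list was selected for this contrast, so calls that stayed are no measure of robustness. Without G.29, Gra.1483.2.S1_at and Ghi.9475.1.S1_s_at, which had not passed with all arrays, were gained, while no other array left out added a call. The calls of Ghi.10354.1.S1_s_at and Ghi.10476.2.S1_s_at were lost without V.1, G.29 or G.30, and that of Gra.590.1.S1_s_at without either *Gh* array. Those of Ghi.9633.2.S1_s_at and of the alpha-expansin 4 probe set Ghi.9840.2.S1_s_at were lost without either *Gb* array, and that of Ghi.8051.1.A1_x_at without V.1, V.2 or G.29.

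**Figure D4:**
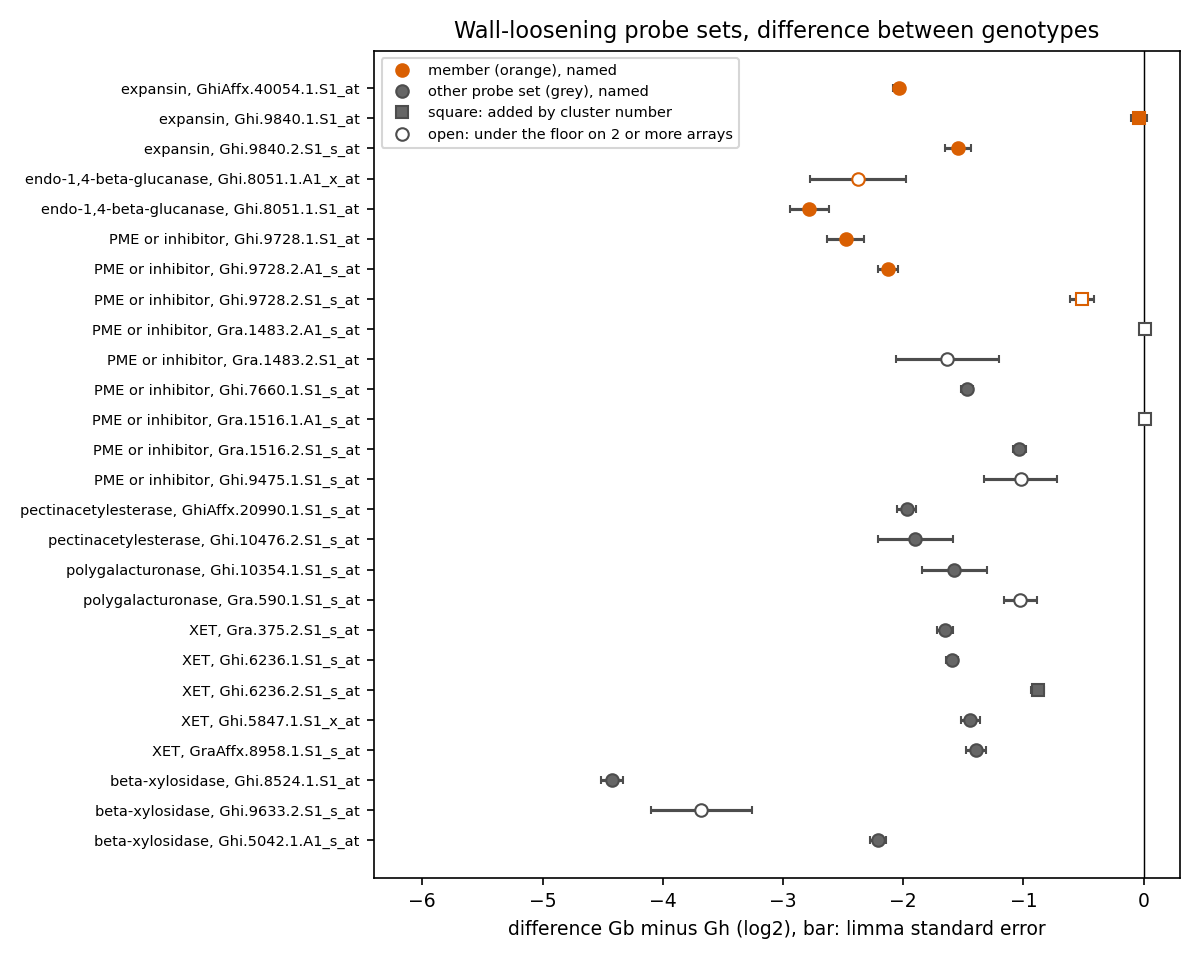
Difference *Gb* minus *Gh* (x axis, log2) with its limma standard error for the 26 wall-loosening probe sets (rows; XET, xyloglucan endotransglycosylase; PME, pectin methylesterase). The 8 probe sets of the 4 genes are orange, squares were added by cluster number, and open symbols were under the floor on 2 or more arrays; the named probe sets range from -4.42 to -1.02.

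To place the patterns, the values of each probe set over the 4 arrays were centred on their own mean. The 695 candidates were named probe sets of the rows used, all with the higher signal in *Gh*. Listed were those nearest to the probe set with the largest signal of each gene. For alpha-expansin 8 these were a nucellin-like protein (Ghi.10117.4.A1_at, Euclidean distance 0.073 on the log2 scale), an aspartic endopeptidase (Ghi.9409.1.S1_at, 0.080) and a probe set named only catalytic (Ghi.5602.1.A1_s_at, 0.087). All 3 had a mean *Gb* signal under the floor, so that these distances rest on signals not above it. The alpha-expansin 4 probe set Ghi.9840.2.S1_s_at was nearest to a nucleic acid binding protein (GhiAffx.8049.1.S1_at, 0.055), a predicted protein (GhiAffx.50889.1.S1_x_at, 0.072) and a probe set named catalytic (Ghi.5002.1.S1_s_at, 0.088).

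The endoglucanase was nearest to a kinesin-like protein (GhiAffx.50149.1.S1_s_at, 0.087), a probe set named amino acid (GraAffx.16508.1.A1_x_at, 0.146) and a short-chain dehydrogenase reductase (Ghi.8983.2.S1_at, 0.177), again all 3 with a mean *Gb* signal under the floor. The pectin methylesterase-like protein was nearest to a homolog of the replication factor CDT1A (GhiAffx.40752.1.S1_s_at, 0.106), an RNA lariat debranching enzyme (Ghi.8211.1.S1_s_at, 0.116) and a reversibly glycosylated polypeptide (GhiAffx.37365.1.A1_at, 0.154). With 4 arrays in 2 species, a small distance means little more than a similar difference between the species. None of these neighbours was a wall-loosening name of the list, but the list holds only 21 named probe sets, so nothing is read from this.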

How the data were processed

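Fiber RNA of *Gb* and *Gh* (2 arrays each) was measured on the Affymetrix cotton array. The deposited values are log2 signals that the authors made by gcrma normalization of the scanner files, 1 column per array; its version is not given in the sources used here. In all, 103 control probe sets were left out. The lmFit and eBayes functions of limma (version 3.58.1, R 4.3.3) gave differences, *Gb* minus *Gh*, with standard errors and two-sided p-values. These were adjusted after Benjamini-Hochberg across 24029 probe sets, and 0.05 was the threshold. A group with both arrays under log2 4 was treated as below the floor, and folds are then the other mean against 4. A pair of probe sets entered the comparison of clusters when each reached 4 on at least 2 arrays, and gaps within arrays were compared by two-sided exact permutation tests in Python 3.11.15.

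The members and lists were chosen with earlier results of these data known. Named were all members and probe sets of their clusters, every named probe set of the wall-loosening list, unnamed ones in it past the threshold, and the 3 nearest named patterns per gene. Precision was limited by the number of arrays. Replicates were RNA pools described as independent. No batch is named. Alternatives were other scalings, adjustments, priors, filters and floors, the methods' t-test, and leaving out each array. Scaling to the hybridization controls and quantile normalization of the called counts, pairs over the floor on all arrays, medians with bounds, and the scalings and methods' t-test of the list, were added after seeing the data. Sequences of the probe sets were not used here.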

Additional observations from a re-analysis of the deposited data

How the results depend on the processing

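The differences of 7 of the 8 probe sets kept their sign in all 8 alternatives run on them (4 scalings and each array left out), the exception being Ghi.9840.1.S1_at, negative in 5 of 8. Scaling to the hybridization controls, which lowered the median of all probe sets from 0.04 to -0.26, gave medians of -2.54 for the 6 named and -2.37 for all 8 probe sets; leaving out 1 array gave -2.33 to -2.07 and -2.09 to -2.01. With this scaling 7747 probe sets were called in place of 4880, and 74.3% of the calls were higher in *Gh* in place of 43.7% (35.5% after subtraction of array medians, where the median of all was 0.12). Bonferroni adjustment of limma called 33, the methods' t-test with Benjamini-Hochberg adjustment 7328, and leaving out 1 array 2542 (without V.2), 2798 (without V.1) to 3947. Of the 26 wall-loosening probe sets limma with Bonferroni adjustment called 0, whereas 23 had an unadjusted p under 0.05 (7826 of 24029 among all probe sets). The methods' t-test called 20 of them after Bonferroni and 21 after Benjamini-Hochberg adjustment. Among all probe sets it called 3908 and 7328 of 23586. The study chose its rows by such a t-test, so these counts were largely fixed in advance and nothing is read from them. Without probe sets that can match several transcripts, 4 of 6 remaining ones were called. The shift of the endoglucanase gap reversed to -0.03 without V.2 and -0.14 without G.30, with a range of -0.14 to 0.94; both *Gb* arrays of Ghi.8051.1.A1_x_at are under the floor, so nothing was read from this shift (0.40 with all arrays). The bound for Ghi.8051.1.A1_x_at fell from 3.12-fold to 1.56-fold with a floor of 5. With a floor of 3 it had no bound. Apart from the constructions named, the cause of these changes was not tested. No paired analysis was possible because the arrays of both species share no replicate number. Signal near the floor limits Ghi.9728.2.S1_s_at and Ghi.8051.1.A1_x_at.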
